A study of Mus musculus with 4 samples.

Results

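The guanylate-binding proteins (GBPs) are large GTPases, and the transcripts of 10 of them (Gbp1, Gbp2, Gbp3, Gbp4, Gbp5, Gbp6, Gbp8, Gbp9, Gbp10 and Gbp11) were followed here on microarrays of mouse muscle precursor cells depleted of Fxr1. All 10 names were found on the array, where they are carried by 11 of its 55681 probes and make up 10 of its 36413 named genes. The names were selected on measured values, because in earlier readings of these same arrays the family appeared to be higher after Fxr1 depletion in both experiments, so every siFxr1 to siControl value given for a member is a description and carries no test. In the values computed here that description held for 6 of the 10 genes. Of these, Gbp4, Gbp8, Gbp9 and Gbp11 lie on chromosome 5 and Gbp2 and Gbp5 on chromosome 3. Gbp5 is counted although its signals in experiment 1 were not well above background in either condition.

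The cells were C2C12, an immortalised murine myoblast line that can be differentiated into myotubes in culture. One condition, siFxr1, received an siRNA against an exon shared by all Fxr1 transcripts, and the other, siControl, received a control siRNA. Fxr1 encodes an RNA-binding protein of the family that includes the fragile X protein. RNA was taken 48 hours after transfection, and each condition was measured once in experiment 1 and once in experiment 2, which gave 4 one-colour arrays with 2 per condition. No array of untransfected cells was analysed here. The transfection was transient in a single line, both conditions carried an siRNA, and a second siRNA was not analysed here, so an effect of Fxr1 loss and an effect of this siRNA sequence cannot be told apart. The RNA integrity number was 8 for siFxr1 in experiment 1 and 9 for the other samples.

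GBPs are among the transcripts that interferons induce most strongly in many cell types. They assemble on the membranes of vacuoles that hold intracellular pathogens, and on bacteria in the cytosol, and help expose these to the inflammasome and other defences of the cell. In the mouse the genes lie in a cluster on chromosome 3 and a cluster on chromosome 5. Their promoters typically carry the interferon-stimulated response element (ISRE), bound by interferon regulatory factors, or the gamma-activated site (GAS). Interferon-gamma acts mainly through the GAS and the type I interferons mainly through the ISRE.

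Several array names predate the present nomenclature. The probes named Gbp1 list an accession that RefSeq gives to Gbp2b, and the probe named Gbp6 lists one that RefSeq gives to Gbp7, so the array's Gbp6 is a chromosome 3 gene. RefSeq's own Gbp6, on chromosome 5, is on the array under its older name Mpa2l with 2 probes, which are given beside the members. The array names are kept below. The first 30 bases of the probes on chromosome 5 are shown because members of this family have similar coding sequences, and the probe decides which of them a signal belongs to. All are in lower case because no base is singled out.
Gbp8, chr5:105443951-105444010: gagaagttgcttcatttattttttctccca
Gbp9, chr5:105508946-105509005: aatataaaagtgctgatttgagggtggctg
Gbp4, chr5:105544852-105544911: gtgtatatcagctattatttaagctacctt
Gbp10, chr5:105644753-105644812: aatatgatttatttaaggtgtacccacccc
Mpa2l, chr5:105700056-105700115: gaaatgtcaagttcaaaagaatgaactgtg
Mpa2l, chr5:105702128-105702187: ggctctcttaaatggattttctacagttct
Gbp11, chr5:105752145-105752204: ctggaaactacttaaacatccctgagttag

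The positions are those of the whole 60-base probes, on mm9 as the array annotation gives them. No probe of the family shared a run of more than 9 bases with another probe of the family. A probe can still match several transcripts: the Gbp10 probe and the second Mpa2l probe each list accessions of both Gbp10 and RefSeq Gbp6, so neither signal can be assigned to one of these genes.

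Fxr1 itself was lower in both siFxr1 samples, with log2 fold changes of -3.61 (SE 0.28) and -3.31 (SE 0.29) at its 2 probes, in the direction the labels give. Between 46.5% and 53.9% of the spots of an array were marked well above background by the scanner software, and 0 were saturated. The myoblast markers Myod1, Des, Cdh15 and Myog were well above background on all 4 arrays and Myf5 on none. Of 6 macrophage markers, Csf1r and Itgam were well above background on all 4 arrays and Ptprc and Adgre1 on none, and the summed signal of the 6 was 6433 and 14017 in siFxr1 and 3889 and 15261 in siControl (experiments 1 and 2). Of 5 T and NK cell markers, Cd3e and Lck were well above background on all 4 arrays and Cd3g, Ncr1 and Klrb1c on none, with summed signals from 792 to 1729. Of 3 endothelial markers, 1 to 3 were well above background on an array, with summed signals from 110 to 209. In bulk RNA, more cells that express a gene and more RNA per cell cannot be told apart.

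On chromosome 5, Gbp8, Gbp11, Gbp4 and Gbp9 were at least 2-fold higher in siFxr1 in both experiments, and in each of them both siFxr1 arrays lay above both siControl arrays. Values are normalized signals on the log2 scale and can be compared between arrays for a probe, but not between probes. Gbp8 had signals of 9.28 and 7.79 in siFxr1 and of 6.91 and 4.53 in siControl, in experiments 1 and 2 respectively. The siFxr1 sample was thus higher by 2.37 in experiment 1 and by 3.26 in experiment 2, where the siControl signal was not well above background. The log2 fold change over both was 2.81 (SE 1.11). This SE and the others of siFxr1 against siControl come from the fit that ignores the pairing by experiment. With the experiment as a block the SE was 0.32 for Gbp8, 0.41 for Gbp11, 0.30 for Gbp4 and 0.20 for Gbp9. For Gbp10 it was 0.30 with the block and 0.27 without. The log2 fold change of Gbp8 moved with the background correction, to 1.51 without one, 1.65 with normexp and 1.52 in the authors' normalized table.

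Gbp11 had signals of 11.28 and 9.87 in siFxr1 and of 9.32 and 6.64 in siControl. The differences were 1.96 and 3.23, and the log2 fold change was 2.60 (SE 1.19). RefSeq classes Gbp11 as a transcribed pseudogene. In Gbp8 and Gbp11 alike, the siFxr1 signal of experiment 2 was less than 1 log2 unit above the siControl signal of experiment 1. The siFxr1 signal of experiment 1 lay further above the siControl signal of experiment 2 than either distance within an experiment.

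Gbp4 had signals of 8.63 and 8.48 in siFxr1 and of 7.37 and 6.42 in siControl. The siFxr1 arrays were close to each other, and the differences were 1.26 and 2.06 with a log2 fold change of 1.66 (SE 0.41). Without background correction the differences of Gbp4 were 0.66 and 1.36, with normexp they were 0.79 and 1.49, and the authors' normalized values gave 0.66 and 1.36, so under these settings Gbp4 was not 2-fold higher in experiment 1. Gbp9 had signals of 9.80 and 10.99 in siFxr1 and of 8.37 and 9.31 in siControl, which gave differences of 1.44 and 1.68 and a log2 fold change of 1.56 (SE 0.61). For Gbp9 the ratio was similar in the 2 experiments, 2.71-fold and 3.20-fold, although both signals were higher in experiment 2.

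The Gbp10 probe, which also lists RefSeq Gbp6, did not share this pattern. Its signals were 7.09 and 6.76 in siFxr1 and 6.30 and 6.77 in siControl, so that siFxr1 was higher by 0.79 in experiment 1 and the pair was level in experiment 2 (log2 fold change 0.39, SE 0.27). The Mpa2l probes did share it. The first, which lists Gbp6 accessions only, had signals of 9.44 and 8.58 in siFxr1 and of 7.94 and 7.42 in siControl, with differences of 1.50 and 1.17 and a log2 fold change of 1.33 (SE 0.42). The second, which also lists Gbp10, had signals of 9.54 and 9.32 in siFxr1 and of 7.78 and 6.73 in siControl, with differences of 1.76 and 2.59 and a log2 fold change of 2.17 (SE 0.44). Both siFxr1 arrays lay above both siControl arrays at each Mpa2l probe.

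**Figure D1:**
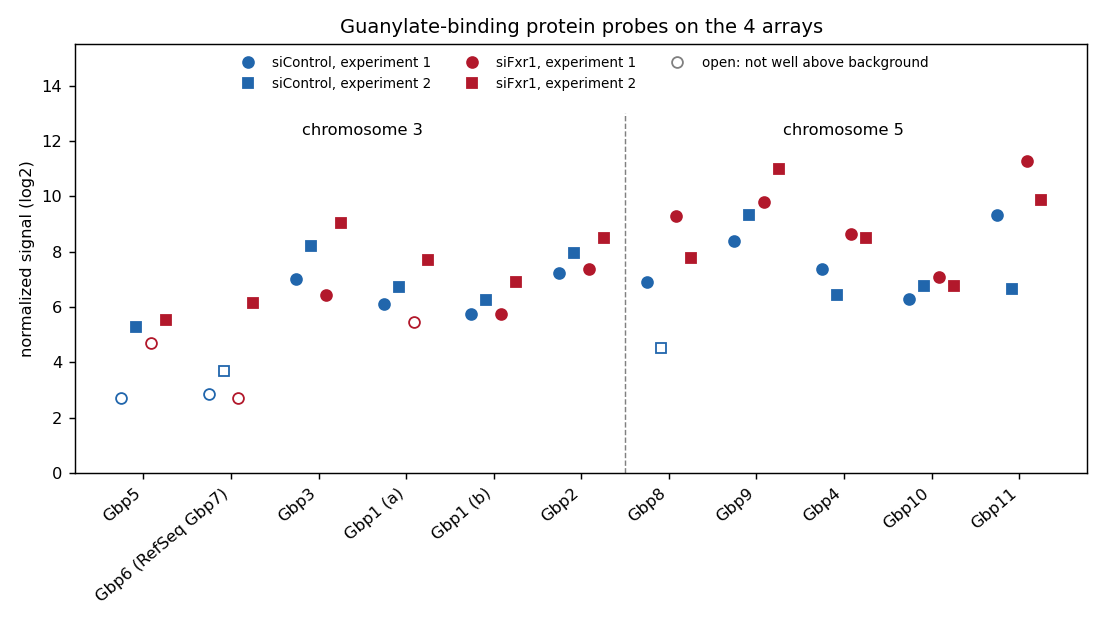
Normalized log2 signal of the 11 member probes (x axis, ordered along each chromosome) on the 4 arrays, with siControl in blue and siFxr1 in red, experiment 1 as circles and experiment 2 as squares. Open symbols were not well above background, and Gbp1 (a) and (b) are its 2 probes in order of position. On chromosome 5 both red symbols lie above both blue ones for Gbp8, Gbp9, Gbp4 and Gbp11. On chromosome 3 the squares lie above the circles of the same colour at each probe.

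On chromosome 3, siFxr1 was above siControl in experiment 2 at each of the 6 probes, and in experiment 1 the sign varied. No gene there was 2-fold higher in both experiments. Gbp3 had signals of 6.44 and 9.05 in siFxr1 and of 7.00 and 8.20 in siControl, so that siFxr1 was lower in experiment 1 (difference -0.56) and higher in experiment 2 (0.85). Gbp2, a widely studied interferon-induced member that acts on pathogen vacuoles and bacteria, had signals of 7.37 and 8.48 in siFxr1 and of 7.24 and 7.96 in siControl. Its differences were 0.13 and 0.51, and its log2 fold change of 0.32 (SE 0.54) was smaller than the difference between the experiments within either condition.

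The brighter of the 2 probes of Gbp1 had signals of 5.44 and 7.70 in siFxr1 and of 6.10 and 6.71 in siControl, with differences of -0.66 and 0.99, and the siFxr1 signal of experiment 1 was not well above background. The other Gbp1 probe, which was well above background on all 4 arrays, had signals of 5.75 and 6.90 in siFxr1 and of 5.73 and 6.27 in siControl. Its differences were 0.01 and 0.63, so the 2 probes disagreed in experiment 1 and both were higher in siFxr1 in experiment 2.

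Gbp5 and the array's Gbp6 were the members not well above background on 2 or more arrays. Gbp5, which promotes inflammasome assembly, had signals of 4.70 and 5.53 in siFxr1 and of 2.72 and 5.27 in siControl, and was well above background only in experiment 2. Its difference of 1.99 in experiment 1 therefore lay between signals that were both not well above background, and the difference of 0.27 in experiment 2 was the measured one. The log2 fold change of Gbp5 over both experiments was 1.13 (SE 1.06), and 0.15 without background correction. The array's Gbp6 had signals of 2.70 and 6.14 in siFxr1 and of 2.87 and 3.70 in siControl, and was well above background only in siFxr1 in experiment 2. A probe described as a guanylate-binding protein 5 transcript under an Ensembl name, noticed after its values were seen and not a member, was well above background on all 4 arrays with signals of 7.95 and 9.37 in siFxr1 and of 7.63 and 9.49 in siControl (differences 0.32 and -0.12).

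With the brightest probe standing for each gene, 6 of the 10 genes were higher in siFxr1 in both experiments, where 23.3% of all probes were. The 6 include Gbp5, whose difference in experiment 1 lay between signals not well above background. A difference of at least 2-fold in both experiments was reached by 4 of 10, against 1.39% of all probes, and both siFxr1 arrays lay above both siControl arrays in 4 of 10, against 12.7%. None of the 10 was lower in both experiments, where 35.6% of all probes were, and 4 had opposite signs. These shares follow from how the names were chosen and nothing is read from them. Of the 4 genes past the 2-fold limit in both experiments, which is 1 on the log2 scale, Gbp4 lay closest to it with a smaller difference of 1.26. The nearest genes below it were Gbp5 and Gbp2, with smaller differences of 0.27 and 0.13. The median log2 fold change was 1.66 over the 5 genes on chromosome 5 (1.44 in experiment 1 and 2.06 in experiment 2) and 0.32 over the 5 on chromosome 3 (-0.17 and 0.85). It was 1.13 over the 10 genes and -0.01 over all probes.

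Across all 55627 fitted probes, limma with the condition as the only term gave a B value above 0, or an adjusted p under 0.05, to 0% of probes and to 0 of the 11 member probes. No probe had an adjusted p below 0.950, although 2761 fell under 0.05 before the adjustment. With the 4 ratios of siFxr1 over siControl arrays taken as observations, 1.99% of probes had a B value above 0 and again 0 of the 11 member probes were among them. Those ratios share arrays and are not independent. With 2 arrays per condition the smallest exact two-sided permutation p for a single gene is 0.333.

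**Figure D2:**
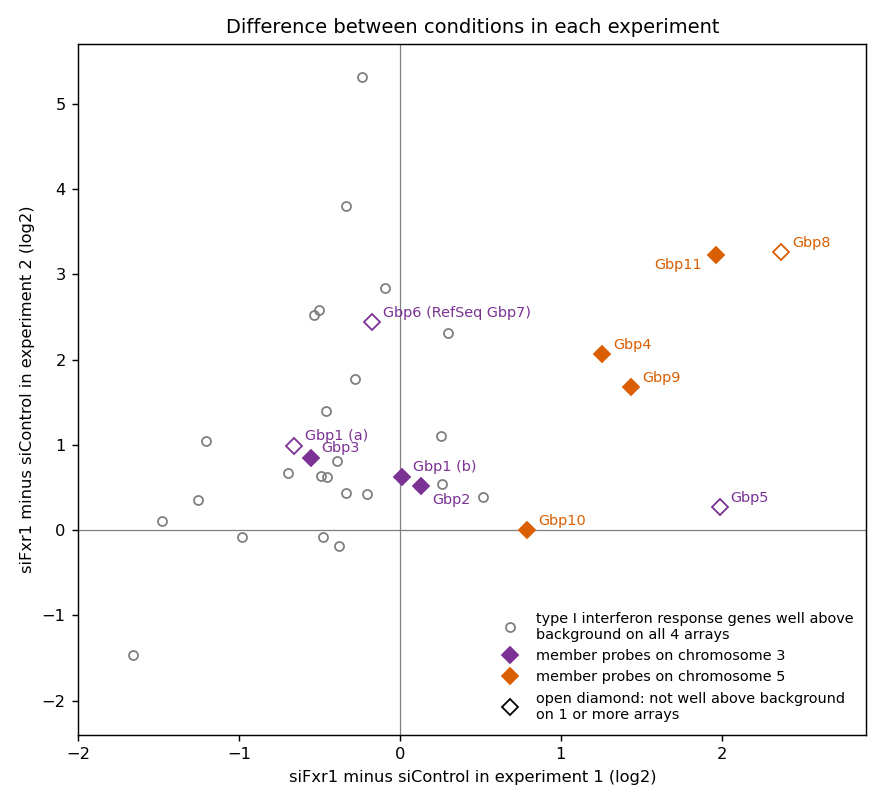
Difference between siFxr1 and siControl (log2) in experiment 1 (x axis) and in experiment 2 (y axis), for the 11 member probes (diamonds, purple for chromosome 3 and orange for chromosome 5) and for genes of the type I interferon response that were well above background on all 4 arrays (grey circles). Open diamonds were not well above background on 1 or more arrays. Gbp8, Gbp11, Gbp4 and Gbp9 lie at the upper right, and Gbp3, the array's Gbp6 and the brighter probe of Gbp1 lie to the left of 0 in experiment 1 and above 0 in experiment 2.

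The comparison of experiment 2 with experiment 1, which did not enter the choice of the names, also ran differently along the family. All 5 genes of chromosome 3 were higher in experiment 2 in both conditions. On chromosome 5, Gbp8, Gbp11 and Gbp4 were lower in experiment 2 in both conditions, Gbp9 was higher and Gbp10 changed sign. In total 6 of 10 genes were higher in experiment 2 in both conditions, against 28.2% of all probes, and 3 of 10 were lower, against 33.9%. Whether the clusters differ in this respect was not tested. The shift of the chromosome 3 genes was not particular to them. Of 38 genes of the type I interferon response, 19 were higher in experiment 2 in both conditions and 2 were lower. All 5 myoblast markers were lower in experiment 2 in both conditions. Of these, Myf5 was not well above background on any array, and Des was near level in siControl (-0.0057). Myog, a transcription factor of muscle differentiation, differed by -2.09 in siFxr1 and -2.14 in siControl on the log2 scale. The summed signal of the 5 myoblast markers went from 121069 to 56748 in siFxr1 and from 125381 to 62655 in siControl. That of the 6 macrophage markers, given above, was higher in experiment 2. Most of it came from Itgam, which was higher by 1.59 in siFxr1 and 2.48 in siControl. Of the 6, 3 were higher in experiment 2 in both conditions and 2 were lower, among them Csf1r (-0.66 and -0.53). The part of these shifts in the GBP values was not tested.

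With the condition as a covariate, limma gave an adjusted p under 0.05 to 0% of probes in this comparison and to 0 of the 11 member probes. The adjusted p went no lower than 0.108, and before the adjustment 11166 probes fell under 0.05. The log2 difference between experiments, experiment 2 minus experiment 1, was -1.93 (SE 0.32, limma adjusted p = 0.129) for Gbp8 and -2.04 (SE 0.41, limma adjusted p = 0.151) for Gbp11. It was 1.06 (SE 0.20, limma adjusted p = 0.147) for Gbp9 and 1.91 (SE 0.44, limma adjusted p = 0.174) for Gbp3. For Gbp5, Gbp2 and the probes of Gbp1 it lay between 0.84 and 1.69, with limma adjusted p from 0.181 to 0.275. For the array's Gbp6, well above background on 1 array only, it was 2.13 (SE 0.76, limma adjusted p = 0.281). Since Gbp5 was not well above background in experiment 1, it was at least 1.39-fold higher in experiment 2. For Gbp4 it was -0.56 (SE 0.30) and for Gbp10 0.07 (SE 0.30).

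These calls changed with the processing. With signals left without background correction, corrected by normexp, or limited to brighter probes, Gbp3 and Gbp9 passed an adjusted p under 0.05 as higher in experiment 2, and Gbp8 and Gbp11 passed it as lower. Those settings called 9.16%, 8.04% and 17% of all probes tested, in that order, beside 4 of the 11 member probes, or 4 of the 9 that passed the filter. Under the authors' normalized table the same 4 passed together with Gbp2, where 9.8% of all probes were called. With scaling to the 75th percentile, in a fit where some probes had no residual variance, Gbp3, Gbp5, the array's Gbp6 and the brighter Gbp1 probe passed as higher and Gbp8 and Gbp11 as lower, where 10.5% of all probes were called. Each experiment was 1 slide and 1 set of cultures, so a difference between cultures and one between slides cannot be told apart.

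**Figure D3:**
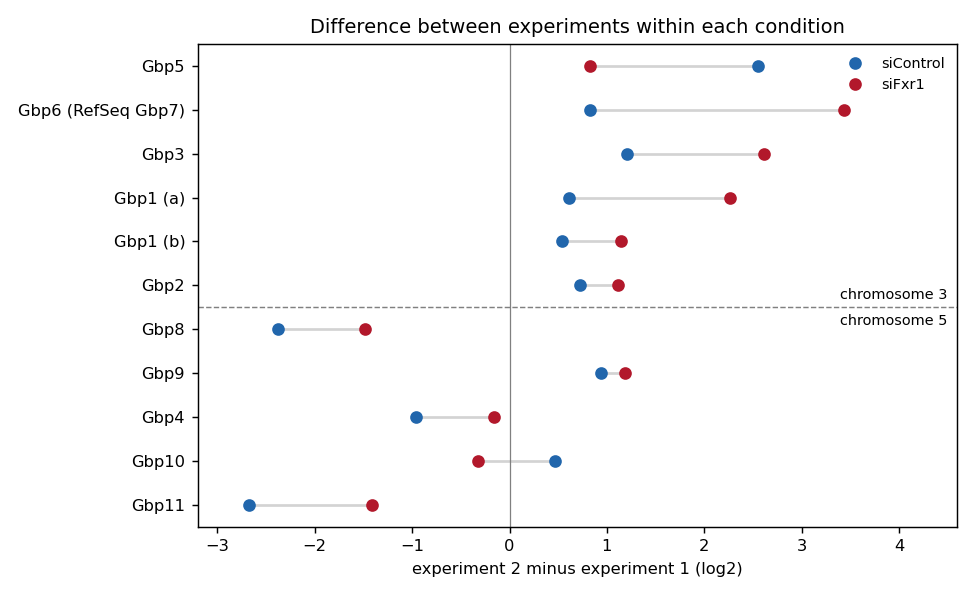
Difference between experiment 2 and experiment 1 (log2, x axis) for each of the 11 member probes (y axis, ordered along each chromosome), within siControl (blue) and within siFxr1 (red). A grey line joins the values of a probe. All 6 probes on chromosome 3 lie to the right of 0 in both conditions, while Gbp8, Gbp4 and Gbp11 lie to the left of 0 in both.

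Other interferon-regulated transcripts were measured on the same arrays. Of 38 genes of the type I interferon response, 7 were higher in siFxr1 in both experiments, 0 were at least 2-fold higher in both, 5 were lower in both and 26 had opposite signs, and 0 were called by limma. The median difference of the list was -0.42 in experiment 1 and 1.07 in experiment 2, beside -0.17 and 0.85 for the chromosome 3 GBPs and 1.44 and 2.06 for the chromosome 5 GBPs. Cxcl10, a chemokine induced by interferons, had signals of 6.79 and 11.44 in siFxr1 and of 7.02 and 6.13 in siControl, with differences of -0.23 and 5.31. Ccl5, another chemokine, had differences of -0.33 and 3.80. The high siFxr1 signals of both chemokines were thus in experiment 2 alone. Ifit2, a translation inhibitor of the antiviral response, was lower in siFxr1 in both experiments (differences -1.66 and -1.47).

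Many immunity-related GTPases (IRGs) and the Mx proteins are interferon-induced GTPases that work beside the GBPs, such IRGs on pathogen vacuoles and the Mx proteins against viruses. The list of 13 genes went by family, and whether each is induced by interferon in these cells was not tested. Of the 13, 3 were higher in siFxr1 in both experiments, 1 of them at least 2-fold in both. Another 4 were lower in both and 6 had opposite signs, with 0 called by limma. The gene that was 2-fold higher in both was Gvin1, a very large interferon-induced GTPase, with signals of 7.03 in siFxr1 in experiment 1 and of 8.24 in siFxr1 and 6.71 in siControl in experiment 2 (differences 1.03 and 1.54). Igtp, an IRG, had differences of -0.74 and 2.49, and Irgq of -0.69 and -0.22. The medians of the list were -0.67 in experiment 1 and 0.47 in experiment 2.

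Of 26 genes of interferon signalling, from the interferons and their receptors to the Jak kinases and interferon regulatory factors, 5 were higher in siFxr1 in both experiments, 9 were lower in both and 12 had opposite signs. None was at least 2-fold higher in both, 2 were at least 2-fold lower in both, and 0 were called by limma. Ifnar1, a chain of the type I interferon receptor, was lower in siFxr1 by similar amounts (-1.10 and -1.21), with signals of 9.27 and 9.28 in siFxr1 and of 10.36 and 10.49 in siControl. Irf9, an interferon regulatory factor that binds the ISRE, had differences of 0.18 and 0.89, and Irf3 of -0.45 and -0.50. Ifnb1, the interferon-beta gene, was well above background on none of the arrays. Ifng, the interferon-gamma gene, was so on 2 of the 4, with signals of 4.25 and 3.45 in siFxr1 and of 7.65 and 4.65 in siControl.

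The 18 genes of antigen presentation encode proteins that take part in presenting peptides on MHC molecules. Of these genes, 8 were higher in siFxr1 in both experiments, 5 were lower in both and 0 were at least 2-fold higher in both. Erap1 had differences of -0.86 and -1.35, Cd74 of 0.59 and 1.28, and H2-M3 of 0.36 and 0.81. Of 13 inflammatory genes 9 were higher in both, 2 at least 2-fold, and 3 were lower in both. Il6, which encodes the cytokine interleukin-6, had signals of 9.93 and 9.60 in siFxr1 and of 7.82 and 7.02 in siControl, with differences of 2.11 and 2.58 and a log2 fold change of 2.35 (SE 0.37). Both siFxr1 signals of Il6 lay above both siControl signals, as at the 4 chromosome 5 GBPs. Vcam1 had differences of 0.03 and 1.37, and Nfkb1 of 0.54 and 0.39. Neither of these lists held a gene called by limma.

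Promoter windows of 250 bases before to 50 bases after the transcription start were at hand from RefSeq (GRCm38.p6) for the 5 GBP genes of chromosome 3, with 6 windows because Gbp3 has 2 starts, and they were searched for both interferon elements. The ISRE was searched as GAAANNGAAA and the GAS as TTCNNNGAA, each on both strands and with overlaps allowed. The ISRE letters were found in 5 of the 6 windows, in at least 1 window of each of the 5 genes, and in 3.44% of all 32851 windows of the table. The GAS letters were found in 2 of the 6 windows, those of Gbp5 and Gbp7 (the array's Gbp6), and in 8.30% of all windows. The 30 bases around the match nearest the start are shown for each gene with the matched letters in capitals, because these elements are the ones interferons act through. They are written along the plus strand, which is the coding strand of the 5 genes, so each ISRE match reads as the reverse complement of the searched letters. Windows of the chromosome 5 genes were not analysed here, and 4 members there were higher in siFxr1 in experiment 2 as well.
Gbp5 ISRE, chr3:142496759-142496788: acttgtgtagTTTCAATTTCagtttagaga
Gbp5 GAS, chr3:142496872-142496901: tggccgttatTTCTCAGAAccaagcacaga
Gbp7 ISRE, chr3:142530273-142530302: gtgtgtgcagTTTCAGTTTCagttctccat
Gbp7 GAS, chr3:142530239-142530268: aagcagaagcTTCTCAGAAagtcagcacaa
Gbp3 ISRE, chr3:142559992-142560021: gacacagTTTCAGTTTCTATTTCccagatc
Gbp2b ISRE, chr3:142594700-142594729: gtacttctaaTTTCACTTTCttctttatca
Gbp2 ISRE, chr3:142620594-142620623: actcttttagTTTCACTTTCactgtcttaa

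The ISRE matches began 53 bases before the start in Gbp7, 59 in Gbp2, 137 in Gbp2b and 165 in Gbp5. The Gbp3 stretch holds 2 overlapping matches, at 45 and 39 bases before the start. Gbp2 and Gbp2b, whose array name is Gbp1, hold the same 10 letters, TTTCACTTTC. The matches are letters in these windows, and binding of a factor was not measured.

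Genes next to the clusters were also examined, within 250 kb on either side and in between. On chromosome 5 the member probes span 308254 bases and on chromosome 3, with the Ensembl-named probe, 119353 bases. Of the 7 other probes around the chromosome 5 cluster, 2 were well above background on all 4 arrays. One of these was Gm9640, a predicted pseudogene inside the cluster between Gbp4 and Gbp10, with differences of 1.76 in experiment 1 and 1.76 in experiment 2. The other, Lrrc8b, which encodes a subunit of volume-regulated anion channels, had differences of -0.19 and 0.20. Of 9 other probes around the chromosome 3 cluster, 5 were well above background, and of these 1 was higher in both experiments (Ccbl2, 0.90 and 0.98) and 2 were lower in both (both of Pdlim5, from -0.47 to -0.67). LOC100048720, predicted to resemble Gbp1 and lying inside the chromosome 3 cluster, was well above background on 1 array only.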

How the data were processed

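The authors extracted total RNA, labelled it with Cy3 and deposited for each of the 4 Agilent arrays the spot intensity given by Feature Extraction 10.7.3.1, background-corrected within the array, with the software's other marks per spot (control, outlier, well above background). The authors also deposited a table of normalized intensity with medians between 119.25 and 119.625 per array, which ranks spots as the median raw signal does and was used as an alternative. The build of the probe positions is mm9.

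Intensities of the 59305 non-control spots were taken to log2 and quantile-normalized, outlier spots were removed and spots of a probe were averaged, in R 4.3.3 with limma 3.58.1. In all, 54 probes had no fit because of an outlier spot on an array. The siFxr1 to siControl fit had the condition as its only term (called at B above 0, or Benjamini-Hochberg adjusted p under 0.05). The fit between experiments had the condition as covariate. In the alternative without a condition term and with an array left out, the experiment was its only term. The limit for calling a probe well above background on an array was a share of 0.5 of its spots with that mark. The condition term, fitted alone and together with the experiment, was tested on simulated data with independent noise, large changes and no difference between experiments. The arrays do differ between experiments, so this checks the code and not the power of the fit on these data. The experiment term was not tested in this way. Tables and plots were made with Python 3.11.15, pandas 2.3.3 and matplotlib 3.10.9. Arrays measure relative signal, and their number (2 per condition) limits the precision. The labels number the replicates as experiments 1 and 2.

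Samples were grouped by their labels, whose experiment numbers pair the arrays, and arrays with the same number shared a slide. Over 25523 probes, the deviations of same-numbered arrays from the condition means correlated at 0.714.

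The genes named are all members with every probe, family probes under older names, up to 3 genes per list by the size of the difference among those well above background on all 4 arrays, and the 5 genes with the nearest pattern. Genes around the clusters, Ifng and Ifnb1 were added after their values were seen. The members and lists were chosen with earlier results of these data known. Accessions of 26413 probes matched the RefSeq table. Alternatives were scaling to the 75th percentile, the authors' table, no background correction, normexp (offset 50), a filter on dim probes, the replicate block, the 4 ratios, no condition term, the mean over a gene's probes, and each array left out.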

Additional observations from a re-analysis of the deposited data

How the results depend on the processing

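Probes with a B value above 0 numbered 0 under every alternative except the 4 ratios, which gave 1107 (572 higher in siFxr1). The replicate block, which fits the experiment as a pair, gave 0 as well, with a lowest limma adjusted p of 0.535, and changed no member's call. Probes differing between experiments at a limma adjusted p under 0.05 numbered 0, but 5842 with scaling to the 75th percentile, 4472 with normexp, 5095 without background correction, 5451 with the authors' table and 4340 with the filter on dim probes, and 0 with each array left out. Among the 11 member probes 6, 4, 4, 5 and 4 of these were called in turn, the last of 9 that passed the filter. The median log2 fold change of the member genes, 1.13, fell to 0.34 under normexp, under no background correction and under the authors' table, and ran from 0.44 to 1.56 with an array left out. Under those alternatives and under scaling to the 75th percentile 8 genes were higher in both experiments, and 3 were at least 2-fold higher in both under the first group (Gbp4 fell under the limit) and 4 under the scaling. Counts over both experiments could not be recomputed with an array left out. Leaving out an array turned the sign of the siFxr1 to siControl difference on chromosome 3 only: it ran from -0.96 to 1.30 for the brighter Gbp1 probe, from -0.25 to 0.90 for the other, from -0.23 to 0.88 for Gbp2, from -1.16 to 1.45 for Gbp3, from -0.15 to 2.40 for Gbp5, from -0.59 to 2.85 for the array's Gbp6 and from -0.83 to 1.03 for the Ensembl-named Gbp5 probe. With an array left out, the experiments were unbalanced between the conditions, and the fit had no experiment term. The difference between experiments thus entered these ranges and that of the median. Within each experiment siFxr1 was higher for Gbp2 (0.13 and 0.51), the other Gbp1 probe (0.01 and 0.63) and Gbp5 (1.99 and 0.27). For Gbp5 the signals of experiment 1 were not well above background. The 4 chromosome 5 members at least 2-fold higher stayed positive, for example from 1.62 to 4.00 for Gbp8. Between experiments the sign turned for Gbp10 (-0.0012 without background correction, -0.0017 with the authors' table, and -0.32 to 0.47 with an array left out), Gbp4 (-1.59 to 0.47) and the Mpa2l probes (-1.44 to 0.058 and -1.92 to 0.67). With an array left out, this fit had no condition term. The conditions were then unbalanced between the experiments, and the difference between conditions entered these values. Within siFxr1 and siControl, the difference between experiments was -0.16 and -0.96 for Gbp4. It was -0.86 and -0.53 at the first Mpa2l probe and -0.21 and -1.04 at the second. The cause of the changes under the other alternatives was not tested.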

Other observations

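Of 15960 other genes well above background on all 4 arrays, those whose 4 mean-centred log2 signals lay nearest to the median profile of the 6 member genes that were well above background on all 4 arrays were Lat, Ccng1, Nadk, Frrs1 and Ehhadh, at root mean square distances of 0.102 to 0.105 on the log2 scale. Lat encodes an adaptor of T cell receptor signalling, Ccng1 cyclin G1, a transcriptional target of p53, Nadk an NAD kinase and Ehhadh an enzyme of peroxisomal fatty acid oxidation. The median profile of the members was 0.27 and 0.73 in siFxr1 and -0.48 and -0.14 in siControl. The 6 genes included Gbp3 and Gbp11, which differed between experiments in opposite directions (1.91 and -2.04). This profile is thus a composite and need not match either cluster. Ccng1 stood at 0.20 and 0.66 in siFxr1 and at -0.59 and -0.27 in siControl. With 4 arrays, many genes share a profile of this kind, and the likeness is given as a description.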
